A study of Mus musculus with 56 samples.

Results

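Ifit1, Ifit2, Ifit3, Isg15, Rsad2, Oasl2, Irf7, Usp18 and Mx1 are genes that cells switch on when they sense interferon. These 9 genes, out of 53379 in the count table, were followed by name through the mouse male reproductive tract, and all 9 were detected in each of the 7 regions. The mice were C57BL/6 males of 3 or 21 months with no treatment given in the labels. The study bought its mice from centres at Sun Yat-sen University and Xiamen University, and does not state which ages came from which. RNA was sequenced from the testis, from the efferent ductules, from 4 parts of the epididymis (initial segment, caput, corpus and cauda) and from the vas deferens, with 4 libraries for each region at each age and 56 in all. Per the methods of the study, each age had 4 mice, the organs of both sides of a mouse were combined, and every region came from the same mice, so that regions of 1 age are not independent samples. Library totals ran from 11125279 to 20561967 counts with a median of 16384049, and a single gene, Gm42418, took 1.27% to 49.7% of them (13.2% to 17.9% in the cauda). Levels are given as CPM, counts scaled to a common library total, and as mean ± SD with n = 4 unless stated.

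Interferons are secreted proteins that warn cells of viral nucleic acid. Type I interferons bind a receptor of Ifnar1 and Ifnar2, which signals through the kinases Jak1 and Tyk2 to the interferon-stimulated response element before its target genes, where a complex that holds Irf9 binds. Of the 9 genes, Irf7 is a transcription factor that raises interferon transcription itself. Ifit1, Ifit2 and Ifit3 bind RNA and hinder viral translation, Oasl2 belongs to the 2′-5′ oligoadenylate synthetase family, Rsad2 (viperin) makes a nucleotide that stops viral polymerases, and Mx1 is a GTPase that blocks influenza virus. Many laboratory strains, C57BL/6 among them, carry an Mx1 allele that makes no working protein. Isg15 is a ubiquitin-like protein that is attached to other proteins, and Usp18 removes it and dampens receptor signalling. Macrophages, other leukocytes and epithelium can all express these genes, and in bulk tissue fewer cells of a type and less RNA per cell cannot be told apart.

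All 9 genes are protein coding. Their coordinates are in GRCm38 with GENCODE annotation. Ifit2 (ENSMUSG00000045932, chr19:34550694-34576419), Ifit3 (ENSMUSG00000074896, chr19:34583531-34588731) and Ifit1 (ENSMUSG00000034459, chr19:34640871-34650009) stand in a row on the plus strand of chromosome 19. Oasl2 (ENSMUSG00000029561, chr5:114896936-114912234) and Usp18 (ENSMUSG00000030107, chr6:121245906-121270917) are also on plus strands. Isg15 (ENSMUSG00000035692, chr4:156199424-156200818), Rsad2 (ENSMUSG00000020641, chr12:26442746-26456452), Irf7 (ENSMUSG00000025498, chr7:141262706-141266481) and Mx1 (ENSMUSG00000000386, chr16:97447035-97462907) are on minus strands. Ifit3 values are uncertain, because 41.1% of its 75-base windows also occur in Ifit3b. The share was 5.19% for Ifit1 (with Ifit1bl2), 1.92% for Usp18 and 1.71% for Mx1 (with Mx2), and 0 for the other 5 genes. Usp18 overlaps the antisense gene Gm44148 over 15715 bases and Irf7 overlaps Phrf1 on the other strand over 45 bases.

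The core of the response element, GAAANNGAAA on either strand, was searched in the RefSeq promoters (250 bases before to 50 after each start, GRCm38.p6). It occurred in 4 of the 7 members with an entry (57.1%), against 3.99% of the 27025 genes with one. Ifit1 and Ifit3 held 2 matches each, Isg15 held 3 in a row, each overlapping the next, and Rsad2 held 1, while the letters were not in these windows of Ifit2, Oasl2 and Irf7. At least 2 matches occurred in 0.266% of all genes. Among other genes known as type I interferon targets the core was in 17 of 35 promoters (48.6%), among interferon gamma targets in 10 of 16 (62.5%) and among interferon genes in 11 of 20 (55%). A match is a description of letters and does not show that the site was used here. The 111 bases that hold all matches, from 160 to 50 bases before the start, are shown 5′ to 3′ on the strand of the gene, with the matches in capitals (GAAA reads as TTTC where the match is on the other strand).
Ifit1 (chr19:34640729-34640839, plus strand): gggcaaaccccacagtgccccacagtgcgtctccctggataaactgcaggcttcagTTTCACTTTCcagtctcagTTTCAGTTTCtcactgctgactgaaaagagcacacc
Ifit3 (chr19:34583369-34583479, plus strand): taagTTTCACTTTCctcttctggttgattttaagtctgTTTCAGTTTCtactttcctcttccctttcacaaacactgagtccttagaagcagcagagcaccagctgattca
Isg15 (chr4:156200868-156200978, minus strand): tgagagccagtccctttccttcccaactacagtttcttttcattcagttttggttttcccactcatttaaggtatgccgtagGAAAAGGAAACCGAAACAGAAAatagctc
Rsad2 (chr12:26456502-26456612, minus strand): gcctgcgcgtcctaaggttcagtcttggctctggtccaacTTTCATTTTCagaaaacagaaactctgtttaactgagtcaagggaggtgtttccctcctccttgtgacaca

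Several libraries stood apart from their group. The third 3-month cauda library exceeded the mean of its 3 companions by 1.5-fold or more for 12.2% of 17264 genes, against 2.08% to 3.15% for each of the others. Its 12 macrophage markers summed to 1780 CPM against 428 to 444 in the other 3, led by Cd68 at 337 against 9.31 to 10.8. Its T cell markers summed to 29.2 against 8.10 to 13.2. Its B cell and plasma cell markers summed to 193 against 194 to 206, a sum led by Xbp1 (143 against 172 to 174), but 7 of the 12 were at least 1.5-fold higher in it and 2 lower. Epithelial markers were lower in it (658 against 1011 to 1050) and so were cauda markers (10906 against 19469 to 20811). The age changes in the cauda and the 3-month cauda contrasts are therefore given with and without this library. The second 21-month cauda library had a higher sum of the cauda markers (33392 against 15816 to 19523), led by Crisp1 (31404 against 12601 to 16433). Ptgds was the lowest in it (1843 against 2973 to 3524), and Wfdc9 lay within the range of the others (145 against 115 to 148). Its sum of the epithelial markers was lower (790 against 1069 to 1107). This was led by Krt8 (104 against 234 to 243) and Krt18 (155 against 253 to 264), while Epcam was the highest in it (194 against 169 to 178). Initial segment markers reached 847 and 359 CPM in 21-month efferent ductule libraries 2 and 3, against 1.77 to 4.00 in the other 6. Of the 21-month initial segment libraries, the first had the most of each of the 5 efferent ductule markers, such as Lrp2 (180 against 30.6 to 64.1) and Foxj1 (64.1 against 11.3 to 26.0).

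Along the tract the mean level was highest in the cauda epididymis for all 9 genes and lowest in the testis for 8 of them, at both ages. Without the third 3-month cauda library the cauda came first at 3 months for 7 of 9, with Rsad2 highest in the initial segment and Irf7 in the caput. With all libraries, every cauda library lay above those of all other regions for 2 genes at 3 months (Ifit1 and Oasl2) and for 4 at 21 months (Ifit1, Ifit2, Ifit3 and Mx1). The share of all genes that separated in this way was not counted. Differences among the 7 regions passed for 9 of 9 genes at 3 months and at 21 months (edgeR quasi-likelihood F-test, Benjamini-Hochberg adjusted p at most 5.5e-06 and 3.5e-09), as for 91.2% and 91.3% of all genes tested. The exception at the low end was Mx1, which had its lowest mean in the efferent ductules (1.34 ± 0.795 at 3 months and 1.33 ± 0.787 at 21 months). Isg15 was nearly absent from the testis, with 1, 3, 4 and 2 counts in the 3-month libraries and 1, 2, 1 and 0 in the 21-month ones, so no fold is given for it there. A count of 0 allows up to 3 counts, and such limits cover counting error only.

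**Figure D1:**
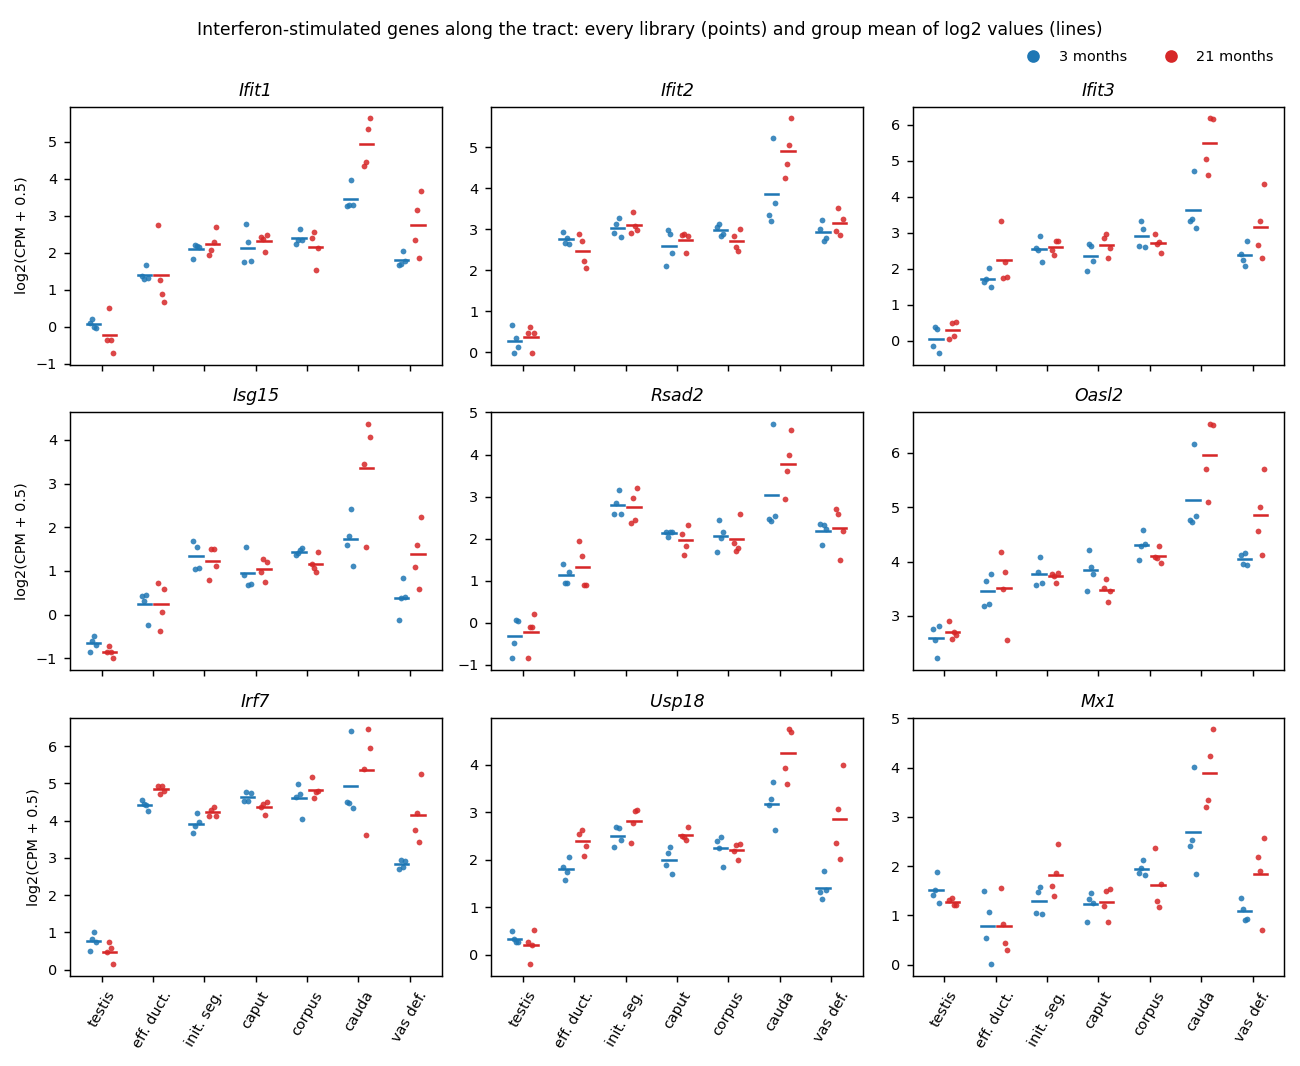
Level of each of the 9 genes in every library, one panel per gene, with the 7 regions from testis to vas deferens on the x axis and CPM on a log2(CPM + 0.5) scale on the y axis; points are libraries (3 and 21 months in different colours), short horizontal lines are the group means of the log2 values. The mean of the cauda stands highest in all 9 panels at both ages.

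Among the RNA-binding proteins, the 3-month order for Ifit1 was cauda (10.7 ± 3.00), corpus (4.75 ± 0.658), caput (4.10 ± 1.63), initial segment (3.79 ± 0.486), vas deferens (2.99 ± 0.422), efferent ductules (2.17 ± 0.345) and testis (0.547 ± 0.083). The cauda libraries lay above all others, and the 4 regions from corpus to vas deferens each overlapped their neighbour. At 21 months Ifit1 was 32.8 ± 14.4 in the cauda, 7.01 ± 4.05 in the vas deferens and 0.392 ± 0.356 in the testis, with the other 4 regions between 2.64 and 4.53. Ifit3 had the same first and last region, at 13.3 ± 8.17 and 0.568 ± 0.260 at 3 months and 49.8 ± 25.2 and 0.749 ± 0.205 at 21 months. The Ifit2 level was flatter outside the cauda, with region means of 5.71 to 7.78 at 3 months in the 5 regions other than cauda (16.8 ± 13.5) and testis (0.732 ± 0.263).

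Irf7 is the transcription factor among the 9. Its 3-month order was cauda (37.1 ± 31.6), caput (24.5 ± 2.44), corpus (24.4 ± 6.33), efferent ductules (20.9 ± 1.76), initial segment (14.7 ± 2.33), vas deferens (6.62 ± 0.576) and testis (1.22 ± 0.251). Its cauda libraries overlapped the caput ones, and the first place rested on the third library, without which the cauda mean was 21.3 ± 1.24, below those of caput and corpus. Oasl2 reached 38.0 ± 21.9 in the cauda and 5.57 ± 1.07 in the testis. Rsad2 was 10.3 ± 10.5 in the cauda (5.06 ± 0.210 without the third library), 6.54 ± 1.37 in the initial segment and 1.70 ± 0.340 in the efferent ductules. For the modifier pair, Isg15 was 3.01 ± 1.36 and Usp18 8.77 ± 2.58 in the cauda, against vas deferens levels of 0.837 ± 0.353 and 2.19 ± 0.505.

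Per kilobase of exon, the 21-month cauda level of Ifit3 was the highest at 28.5 CPM per kb, followed by Isg15 (16.2), Irf7 (13.4), Ifit1 (12.3), Oasl2 (10.5), Ifit2 (8.09), Usp18 (6.95), Mx1 (4.19) and Rsad2 (3.34). Isg15 thus had the lowest CPM of the 9 and the second level per length, as its exons span only 756 bases.

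Set against the mean of the other 6 regions, the cauda was higher for 9 of 9 genes at 3 months, by 1.59 to 2.03 on the log2 scale (adjusted p at most 1.0e-06), where 17.9% of all genes were called higher. Without the third 3-month library the 9 differences were 0.89 to 1.77, and 9 of 9 were still called (15.7% of all genes). At 21 months it was again higher for 9 of 9, by 1.84 (Irf7) to 3.67 (Isg15, a value that includes its near absence from the testis) (adjusted p at most 2.0e-07, 17.9% of all genes). The testis was called lower for 8 of 9 genes at 3 months (31.0% of all genes) and for 9 of 9 at 21 months (31.8%). Mx1 was the member not called at 3 months (log2 difference −0.11, adjusted p = 0.776). Its call at 21 months (−0.94, adjusted p = 0.0124) was lost with DESeq2's size factors (−0.49, adjusted p = 0.185), with DESeq2, with filterByExpr and without the libraries numbered 2 or 4.

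The mean of the other 6 regions includes the testis. With the testis left out, the cauda was 1.12 to 1.85 higher than the mean of the other 5 regions at 3 months (9 of 9 called, 17.2% of all genes) and 1.04 to 2.87 higher at 21 months (9 of 9, 18.1%). At 21 months Ifit1 was 6.94-fold, Ifit3 7.25-fold and Isg15 7.31-fold higher in the cauda than in these 5 regions. Without the third 3-month cauda library as well, 6 of 9 were called at 3 months (14.9% of all genes). Mx1 had the largest difference with all libraries (1.85 ± 0.27, SE) and was at 1.07 ± 0.23 without the third. Ifit1 was then at 1.32 ± 0.16 (adjusted p = 9.5e-08) and Usp18 at 1.02 ± 0.17. Irf7 (0.25 ± 0.13, adjusted p = 0.147) and Rsad2 (0.34 ± 0.16, adjusted p = 0.114) did not pass, and Ifit2 (0.46 ± 0.16, adjusted p = 0.0232) was under 1.5-fold.

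With age the cauda levels of 4 genes rose by the study's thresholds (at least 1.5-fold and an unadjusted p under 0.05): Ifit1, Ifit3, Isg15 and Usp18. In the cauda 3.54% of all genes rose by the same thresholds. None of the 9 passed an adjusted p of 0.05 by edgeR fitted to the cauda libraries, where 0.0700% of all genes did, while 4 passed the unadjusted p and DESeq2 gave 4 at its adjusted p. With edgeR, 1 gene (Ifit1) passed with no filter on low counts, 2 (Ifit1 and Ifit3) with the replicate block and 5 when all 56 libraries were fitted together. The shares of all genes passing in these other fits and with DESeq2 are not given here, so these counts cannot be set against 0.0700%. The median change of the 9 genes was 1.08 on the log2 scale against 0.003 over all 25730 genes. Without the third 3-month library 9 of 9 rose (3.96% of all genes), 2 of them also by adjusted p (0.207% of all genes), and the median change was 1.68.

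Ifit1 was 9.18, 9.34, 15.2 and 9.18 CPM in 3-month cauda libraries 1 to 4 and 19.8, 21.5, 40.5 and 49.2 at 21 months. It was the only member whose groups did not overlap with all 8 libraries (3.08% of all genes), and it rose by 1.59 ± 0.32 (SE, log2, adjusted p = 0.0922), or by 1.86 ± 0.31 (adjusted p = 0.0420) without the third. Ifit3 was 9.61, 9.85, 25.6 and 8.35, and then 32.4, 24.0, 71.9 and 70.9. Its rise was 1.87 ± 0.46 (adjusted p = 0.154) with and 2.46 ± 0.38 (adjusted p = 0.0297) without the third library, in which it reached the range of the old mice. Ifit2 was 9.67, 8.77, 37.0 and 11.99, and then 18.7, 23.7, 32.7 and 52.0. With all libraries Ifit2 differed by 0.87 ± 0.49 (adjusted p = 0.562), and the third young library exceeded 3 of the 4 old ones. Without it the difference was 1.68 ± 0.31 (adjusted p = 0.0665).

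Isg15 was 2.52, 2.99, 4.88 and 1.66 in the young cauda and 10.4, 2.45, 20.1 and 16.2 in the old. The second 21-month library, the one with more Crisp1 and less keratin RNA, stayed in the range of the young libraries. The rise was 2.0 ± 0.55 (adjusted p = 0.209) with and 2.39 ± 0.59 (adjusted p = 0.147) without the third young library. Usp18, the protease for Isg15, was 8.31, 9.15, 11.9 and 5.68, and then 14.6, 11.6, 26.2 and 25.1. Here the rise was 1.13 ± 0.31 (adjusted p = 0.209), or 1.36 ± 0.31 (adjusted p = 0.118) without the third young library.

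**Figure D2:**
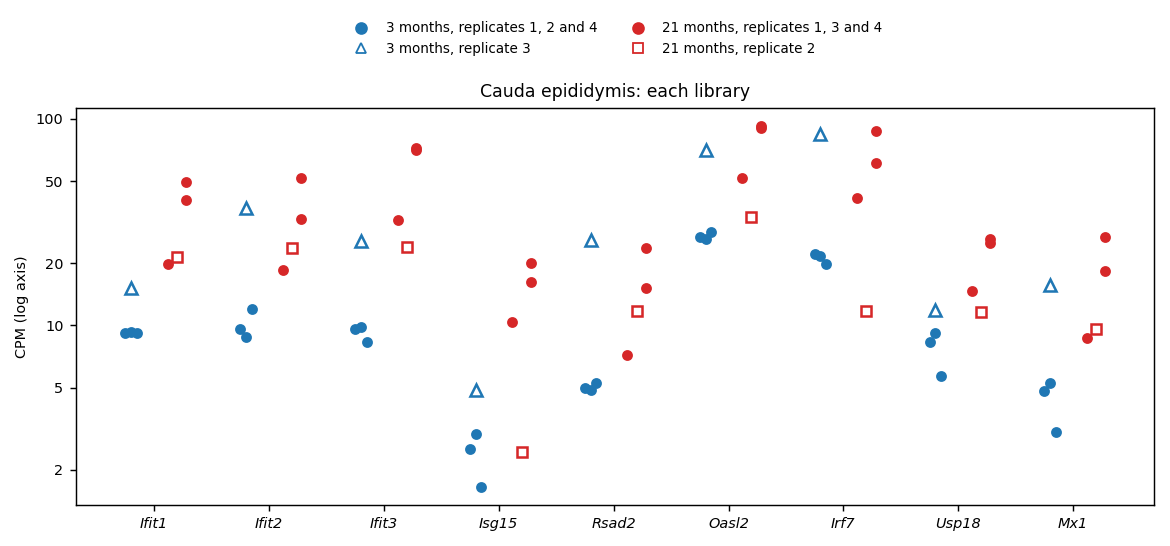
CPM of the 9 genes in each of the 8 cauda libraries (log axis), 3 months and 21 months side by side, with the third 3-month library (triangles) and the second 21-month library (squares) marked. The third 3-month library lies above the other 3 young ones for all 9 genes.

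The remaining 4 genes did not pass the study's thresholds by edgeR fitted to the cauda libraries with all of them kept. Some of the alternative fits with all libraries called more members than this one. Rsad2 was 4.99, 4.89, 26.0 and 5.29 in the young and 7.22, 11.7, 15.3 and 23.6 in the old cauda, so that the third young library was above every old one. Its difference was 0.43 ± 0.58 (adjusted p = 0.810) with and 1.54 ± 0.34 (adjusted p = 0.0976) without it. Irf7 was 22.3, 21.7, 84.4 and 19.9, and then 41.5, 11.8, 87.0 and 61.4. It differed least of the 9, by 0.41 ± 0.61 (adjusted p = 0.831) and 1.29 ± 0.50 (adjusted p = 0.446). Oasl2 was 26.8, 26.2, 70.9 and 28.3, and then 51.5, 33.6, 92.3 and 90.4, a difference of 0.79 ± 0.41 (adjusted p = 0.533) or 1.34 ± 0.32 (adjusted p = 0.127). Mx1 was 4.80, 5.27, 15.8 and 3.06, and then 8.69, 9.60, 18.3 and 26.9, a difference of 1.08 ± 0.53 (adjusted p = 0.506) or 1.88 ± 0.40 (adjusted p = 0.0921).

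The third young library exceeded the mean of the other 3 by 1.55-fold (Usp18) to 5.15-fold (Rsad2), with a median of 2.76-fold over the 9 genes. Apart from it, the young libraries had like sums of the 9 genes, of which Irf7 and Oasl2 make up the most: 98.2, 98.1 and 93.4 CPM in libraries 1, 2 and 4, against 292 in library 3. The old cauda had sums of 205, 150, 404 and 416, the lowest in the second library. With library 3 left out, young and old libraries did not overlap for 7 of 9 genes, all but Isg15 and Irf7 (4.80% of all genes). Leaving out a library after its values were seen fixes part of that separation.

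**Figure D3:**
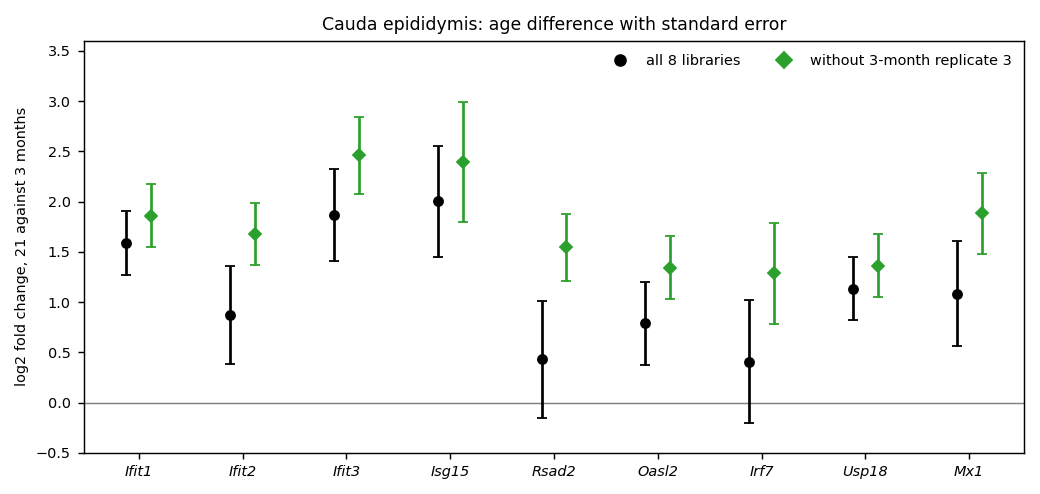
Change from 3 to 21 months in the cauda (log2, ± SE) for each of the 9 genes, with all 8 libraries and without the third 3-month library. The values run from 0.41 to 2.0 with it and from 1.29 to 2.46 without it.

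In the vas deferens 7 of the 9 genes rose with age, where 12.4% of all genes did, and 4 of them (Ifit1, Oasl2, Irf7 and Usp18) also by adjusted p (11.4% of all genes). Irf7 and Usp18 passed that in every alternative fit, while Ifit1 and Oasl2 lost it with library size only, with the replicate block and in 6 of the 8 fits that left out 1 library. Without the third old library 7 members passed it, and the share of all genes passing in that fit is not given here. The median change was 1.04 against 0.02 over all genes. Usp18 went from 2.01, 1.75, 2.92 and 2.09 CPM to 4.58, 7.87, 3.54 and 15.4, a rise of 1.78 ± 0.43 (SE, log2, adjusted p = 0.0151). Irf7 went from 6.03, 7.13, 6.23 and 7.11 to 13.01, 17.8, 10.3 and 38.0, a rise of 1.53 ± 0.36 (adjusted p = 0.0138). These are the 2 members whose ages did not overlap in this region (15.3% of all genes), and in both the fourth old library was the highest and the third the lowest.

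Ifit1 in the vas deferens was 2.70, 2.75, 3.61 and 2.92, and then 4.52, 8.32, 3.09 and 12.1, a rise of 1.17 ± 0.37 (adjusted p = 0.0476). Oasl2 was 16.9, 15.1, 17.5 and 14.8, and then 23.2, 31.8, 16.9 and 51.6, a rise of 0.89 ± 0.29 (adjusted p = 0.0497). The third old library lay within the young range for both. Isg15 (1.42 ± 0.46, adjusted p = 0.0512), Mx1 (1.04 ± 0.40, adjusted p = 0.0947) and Ifit3 (1.0 ± 0.41, adjusted p = 0.113) passed the thresholds of the study only. Ifit2 (7.23 ± 1.30 and 8.55 ± 1.90) and Rsad2 (4.10 ± 0.675 and 4.47 ± 1.67) did not pass, with changes of 0.19 (−0.19 to 0.57 at 2 SE either side) and 0.07 (−0.50 to 0.64).

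The sums of the 9 genes in the old vas deferens were 70.1, 97.6, 49.6 and 160 CPM, against 45.5 to 47.2 in the young. The fourth old library also had a lower sum of the vas deferens markers (10337 CPM against 16517 to 17097) and a higher sum of the cauda markers (8445 against 4530 to 7061). Its higher sum of the corpus markers (2740 against 915 to 1579) was nearly all Gpx3 (2734 against 913 to 1574). Spint3 was also the highest in it (5.31 against 1.41 to 3.77), but Wfdc13 was the lowest (0.285 against 0.404 to 1.29). Red blood cell markers summed to 9.30 in it against 45.9 to 125. Its T cell markers (83.1 against 29.0 to 49.1) and its B cell and plasma cell markers (1826 against 935 to 1327) were the highest of the old libraries. Their part in the result was not tested. Without that library 4 genes rose (Ifit1, Isg15, Irf7 and Usp18), where 10.8% of all genes did.

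**Figure D4:**
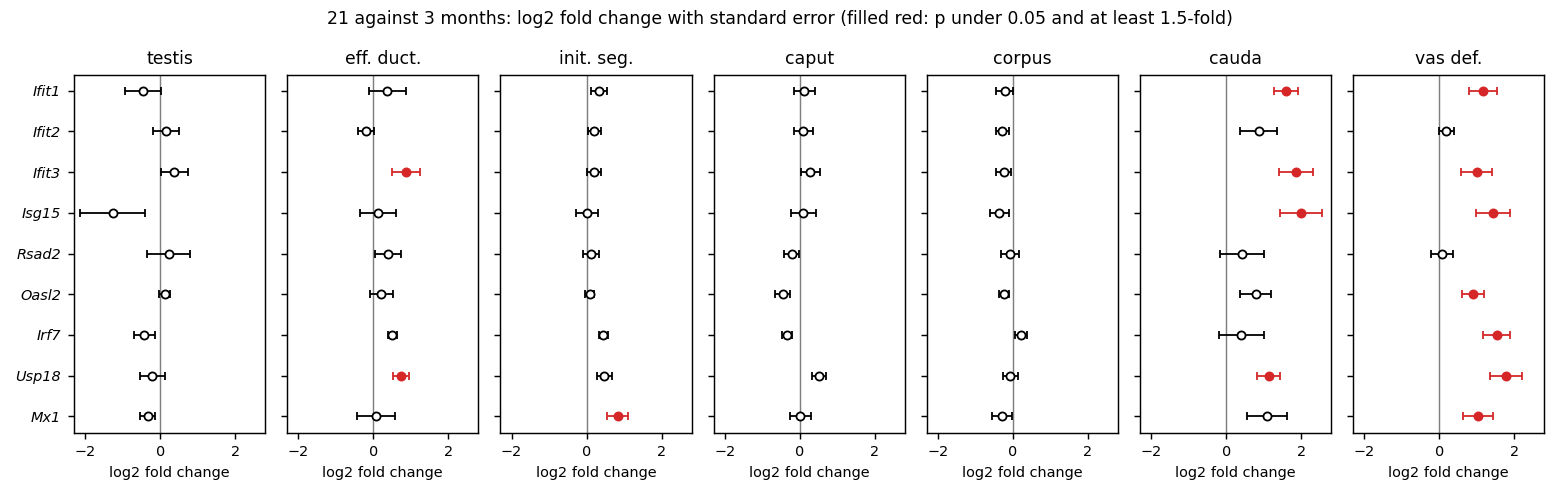
Change from 3 to 21 months (log2, ± SE) of each of the 9 genes in each of the 7 regions. The values in cauda and vas deferens are all above 0, those of the corpus lie between −0.36 and 0.21.

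Elsewhere few members moved. In the efferent ductules Ifit3 (0.87 ± 0.38, adjusted p = 0.189) and Usp18 (0.74 ± 0.22, adjusted p = 0.0643) rose, against 6.68% of all genes, and Irf7 passed by adjusted p alone (0.51 ± 0.12, adjusted p = 0.0313, 4.00% of all genes). Ifit3 there was 9.47 in the first old library and 2.87, 4.05 and 2.91 in the others, and the young libraries lay between 2.33 and 3.56. Usp18 was 2.48 to 3.65 in the young and 3.74 to 5.69 in the old, and Irf7 18.6 to 22.9 and 25.6 to 30.1. Immune and blood markers rose there too, with T cell markers higher for 12 of 12 (sums of 6.03 to 7.16 and 16.3 to 21.0), B cell and plasma cell markers for 9 of 12 (110 to 138 and 270 to 760), macrophage markers for 5 of 12 (401 to 436 and 492 to 608), neutrophil markers for 3 of the 4 tested (9.14 to 12.2 and 14.9 to 23.3) and red blood cell markers for 5 of 6 (17.3 to 29.9 and 38.6 to 115). The neutrophil sum was mostly Mmp9 (8.05 ± 1.27 and 14.6 ± 2.58) and Csf3r (2.05 ± 0.401 and 4.40 ± 1.38). S100a8 had 1 count at 3 months and 9 at 21, Camp had 9 and 2, and the other neutrophil markers had too few counts to be tested. The part of these immune and blood markers in the result, and that of the initial segment RNA in old libraries 2 and 3, was not tested. A single member was called without the first old library or without any 1 of the 4 young ones. Irf7 lost its adjusted p in 5 of the 8 fits that left out 1 library (each young library and the third old one), with library size only, with the replicate block and with all 56 libraries in one fit. In the initial segment Mx1 rose (0.83 ± 0.28, adjusted p = 0.102), against 6.01% of all genes, and Irf7 passed by adjusted p alone (0.44 ± 0.12, adjusted p = 0.0479, 3.35% of all genes). Mx1 was 1.57, 2.27, 2.47 and 1.55 and then 2.52, 2.12, 3.14 and 4.96, which overlap. Here T cell markers rose for 9 of 12 (5.68 to 7.24 and 11.3 to 15.5), and their part was not tested. Mx1 was not called without the fourth old library, while 2 members were called without the first, the old library with the highest efferent ductule markers. Irf7 lost its adjusted p in 6 of the 8 fits that left out 1 library, all but those without the third young or the first old one, and with filterByExpr and all 56 libraries in one fit.

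Caput (4.75% of all genes rose), corpus (3.48%) and testis (1.42%) had no member called. In the caput 3 genes had an unadjusted p under 0.05 but changed less than 1.5-fold: Usp18 differed by 0.51 ± 0.20 (adjusted p = 0.129), Irf7 by −0.34 ± 0.14 (adjusted p = 0.151) and Oasl2 by −0.45 ± 0.20 (adjusted p = 0.175). The corpus values of 8 members were below 0, down to −0.36 ± 0.24 for Isg15, with no unadjusted p under 0.05. In the testis 8 members other than Isg15 differed by −0.47 ± 0.48 (Ifit1) to 0.38 ± 0.37 (Ifit3). None of the 9 had an unadjusted p under 0.05 in the testis, and DESeq2 called none in these 3 regions. Leaving out single libraries gave at most 1 call in each: without the second old testis library, without young caput library 1, 2 or 3, or without the first old corpus library. By adjusted p alone, Irf7 and Oasl2 in the caput each passed in 1 of the 8 fits that left out 1 library.

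Whether the change with age differed among regions was tested over all 56 libraries. It did for 5 of the 9 genes (20.2% of all genes): Isg15 (adjusted p = 0.00306), Usp18 (0.00337), Ifit3 (0.0144), Ifit1 (0.0166) and Oasl2 (0.0405). Rsad2 (adjusted p = 0.983), Ifit2 (0.218), Mx1 (0.132) and Irf7 (0.0613) did not pass with all libraries, and 9 of 9 passed without the third 3-month cauda library (20.2% of all genes). Leaving out all libraries numbered 1, 2, 3 or 4 gave 1, 1, 6 and 0 genes, where 12.2%, 11.2%, 10.2% and 7.76% of all genes passed. The change in the cauda exceeded the mean change of the other 6 regions for 3 genes (0.568% of all genes). These were Isg15 by 2.03 ± 0.44 (SE, log2, adjusted p = 0.00515), Ifit3 by 1.5 ± 0.37 (adjusted p = 0.0163) and Ifit1 by 1.41 ± 0.36 (adjusted p = 0.0235). Without the third young library it did for 7 (0.171% of all genes), and without all libraries numbered 1, 2, 3 or 4 for 3, 1, 1 and 0 (0.547%, 0.0638%, 0.0752% and 0.375% of all genes).

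Immune cell markers were counted beside the 9 genes in cauda and vas deferens. In the vas deferens T cell markers rose for 12 of 12 (sums of 6.93 to 11.4 CPM at 3 months and 29.0 to 83.1 at 21) and B cell and plasma cell markers for 11 of 12 (138 to 176 and 935 to 1826). Macrophage markers rose for 4 of 12 there (229 to 315 and 227 to 368). Without the fourth old library these counts were 12, 11 and 2 of 12. In the cauda T cell markers rose for 2 of 12 (8.10 to 29.2 and 16.4 to 25.5), B cell markers for 8 of 12 (193 to 206 and 238 to 544) and macrophage markers for none, with 2 of 12 lower (428 to 1780 and 350 to 499). Without the third young library T cell markers rose for 8 of 12 in the cauda, B cell markers for 9 of 12 and macrophage markers for 1 of 12, with none lower. Plasmacytoid dendritic cells make much type I interferon. The 8 markers listed for them summed to 73.1 to 79.2 CPM in young cauda libraries 1, 2 and 4, to 154 in library 3 and to 66.0 to 105 in the old cauda. In library 3, 4 of the 8 were at least 1.5-fold higher than in its companions and 1 lower. Most of the excess in the sum came from Clec12a, which myeloid cells also express (50.9 against 5.53 to 5.61), and from Tcf4 (96.4 against 62.8 to 68.6). Siglech was also the highest in library 3 (2.28 against 1.47 to 2.03), and the other markers at least 1.5-fold higher are not named here. The old cauda libraries with sums of the 9 genes of 404 and 416 had macrophage sums of 499 and 444, against 428 to 444 in young libraries 1, 2 and 4, where the 9 genes summed to 93.4 to 98.2. The part of immune cells in the results was not tested.

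**Figure D5:**
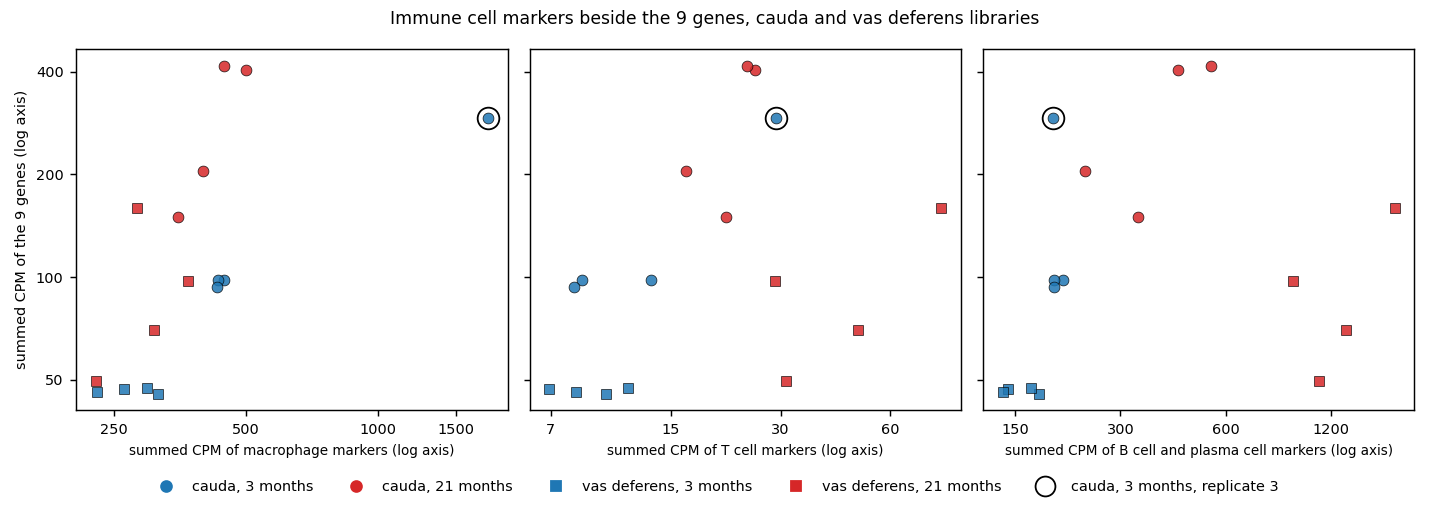
Summed CPM of the 9 genes (y, log axis) against the summed CPM of macrophage, T cell and B cell and plasma cell markers (x, log axes) in the 16 libraries of cauda (circles) and vas deferens (squares) at 3 and 21 months. The third 3-month cauda library (ringed) has the highest macrophage sum, 1780, while the 2 cauda libraries above 400 CPM for the 9 genes have macrophage sums of 444 and 499.

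Upstream of the 9 genes, transcripts of the interferons themselves were at the limit of detection. Of 21 interferon genes, 4 had no count in any of the 56 libraries, 11 had at most 3 counts in all, and none reached 1 CPM in a library. Ifnb1 had 1 count in all, in an old cauda library, and Ifng 13 counts in 9 libraries. The third 3-month cauda library held 3 counts of interferon genes. The 6 receptor genes, in contrast, were well expressed. Summed, they were 187 to 195 CPM in young cauda libraries 1, 2 and 4, 332 in library 3 and 180 to 188 in the old cauda, and none of the 6 was called for age there. The testis had the lowest receptor sums, 83.8 to 87.5 at 3 months and 89.0 to 96.2 at 21.

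Other genes of the pathway in the cauda were read from 4 lists. In the cauda 3.54% of all genes rose with all libraries and 3.96% without the third young one. Of 44 other type I interferon targets tested, 12 rose with age and none fell, with a median change of 0.51, and 30 rose without the third young library. Of 28 interferon gamma targets tested 14 rose, and 25 without that library. The signalling genes (among them Jak, Irf and Socs genes) had 0 of 14 higher and 1 lower, and the nucleic acid sensors had 2 of 17 higher and 1 lower, with medians of −0.02 and −0.26. Without the third library 2 of 14 and 4 of 17 rose. Ifit1bl2, a gene of the Ifit family beside Ifit1, rose from 0.721 ± 0.084 to 3.38 ± 0.742 (2.21 ± 0.25, adjusted p = 0.0185), the only gene of the lists past an adjusted p with all libraries.

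In the vas deferens 16 of 44 type I targets, 12 of 28 gamma targets, 5 of 14 signalling genes and 5 of 17 sensors rose, and none of these lists had a gene that fell, where 12.4% of all genes rose. The medians of the 4 lists ranged from 0.21 to 0.68. Without the fourth old library the counts were 8 of 44, 7 of 27, 3 of 14 and 4 of 17, against 10.8% of all genes. Irf8, a factor of myeloid and B cells, rose from 8.75 ± 1.16 to 26.8 ± 13.9 (adjusted p = 0.00593), and Irf9, the DNA-binding part of the interferon-activated complex, from 27.2 ± 1.67 to 42.7 ± 11.1 (adjusted p = 0.0240). Tmem173 (STING, the adaptor of DNA sensing) rose from 3.52 ± 0.482 to 7.38 ± 1.56 (adjusted p = 0.00621) and Tlr9, an endosomal DNA sensor, from 2.82 ± 0.675 to 9.78 ± 6.90 (adjusted p = 0.0140). Oas3, a synthetase of 2′-5′ oligoadenylate, rose from 0.579 ± 0.317 to 2.56 ± 2.19 (adjusted p = 0.0498), and Ido1, a gamma target that breaks down tryptophan, from 6.13 ± 1.77 to 28.6 ± 22.4 (adjusted p = 0.0117).

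In the remaining regions single genes of the lists passed an adjusted p. In the efferent ductules Bst2 (tetherin, which holds budding virus) rose from 7.47 ± 1.12 to 20.6 ± 4.78 (adjusted p = 0.00496) and Socs1, an inhibitor of the receptor kinases, from 2.06 ± 0.526 to 5.03 ± 0.512 (adjusted p = 0.00893). Tlr3, a sensor of double-stranded RNA, fell there from 14.6 ± 2.42 to 8.88 ± 0.848 (adjusted p = 0.0416). The initial segment had Irf8 higher (13.3 ± 1.80 to 18.3 ± 1.37, adjusted p = 0.00582), and the caput Tlr8, a sensor of single-stranded RNA (0.779 ± 0.090 to 2.14 ± 0.160, adjusted p = 0.00717). Of 44 type I targets, efferent ductules (6.68% of all genes rose) and initial segment (6.01%) had 4 higher each and the caput (4.75%) had 3, which are shares near those of all genes. The corpus had 4 lower, where 3.36% of all genes fell, and none higher. The testis had 1 of 42 higher and 1 lower.

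Within groups the 9 genes varied together. After the mean of each region and age was subtracted from log2(CPM + 0.5), the 36 pairs of members correlated across 56 libraries with r of 0.33 to 0.80 and a median of 0.61. Over the 48 libraries outside the cauda the median was 0.46 (0.16 to 0.72). All genes of a library share its depth and composition, so these values are a description. Among 19672 other genes, the 10 whose residuals were most like the mean of the 9 were Oas3 (r = 0.87 over 56 libraries), Oas2, Lgals9, Dhx58, Ifi44, Oas1a, Zbp1, H2-T24, Rtp4 and Cmpk2 (0.75). Of them 9 are in the lists of interferon targets or sensors, all but H2-T24. Without the cauda libraries their r with the 9 genes ranged from 0.45 (Lgals9) to 0.80 (Ifi44).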

How the data were processed

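RNA was extracted from 56 samples of male C57BL/6 mice, 4 for each of 7 regions at 3 and at 21 months. Per the labels, libraries were made with a stranded total RNA kit (TruSeq) and sequenced as 150-base paired ends. The authors deposited raw counts per gene, and the submitters' processing notes name cutadapt, HISAT2, HTSeq and mm10. The versions, the counting mode and the strand setting are not given in the sources used here, so that reads of antisense or near-identical genes could not be told apart.

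The members and the gene lists were chosen with earlier results of these data known. Samples were grouped by the region and age in the labels. Genes with at least 10 counts over the libraries of a fit were kept, and libraries were scaled by TMM. Age was tested within each region, and regions within each age, with the quasi-likelihood F-test of edgeR 4.0.16 in R 4.3.3, after the code was tested on simulated data. Age calls took the thresholds of the study, an unadjusted p under 0.05 and at least 1.5-fold, and region calls an adjusted p under 0.05 and at least 1.5-fold. P-values were adjusted over all genes tested (Benjamini-Hochberg). SE is the absolute log2 change divided by the root of F. CPM used TMM over the 56 libraries, and groups were called not overlapping on these values. The other regions entered each contrast with equal weight on the log scale.

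Genes named beside the 9 are up to 4 of each list and region with the largest change among those with an adjusted p under 0.05 and a mean of at least 1 CPM, of which the text gives a part, and the 10 genes with the highest correlation of residuals. The results were recomputed with DESeq2 1.42.0 or its size factors, with scaling by library size only, with no filter or edgeR's filterByExpr, with a replicate block, over all 56 libraries in one fit, and without single libraries. The labels do not say whether libraries numbered alike came from the same mouse, and p-values measure the spread between these libraries. Added after seeing the data were the fits without the testis, with or without the third 3-month cauda library, and the list and marker counts without that library and without the fourth 21-month vas deferens library. Promoter sequences are from RefSeq (GRCm38.p6), with entries for 7 of the 9 genes. Gene coordinates and exon lengths are from GENCODE (GRCm38).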

Additional observations from a re-analysis of the deposited data

Results flagged for a closer look

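Of 126 groups of 4 libraries (9 genes, 7 regions, 2 ages), 11 had a library far from the other 3 by Dixon's test at 95%, where chance gives about 1 in 20, or 6.3. The third 3-month cauda library accounted for 6 of them, as the highest for Irf7 (84.4 CPM), Oasl2 (70.9), Ifit2 (37.0), Rsad2 (26.0), Ifit3 (25.6) and Ifit1 (15.2). For Isg15, Usp18 and Mx1 it was also the highest of its group. The other 5 were Ifit1 in the efferent ductules at 3 months (library 3 highest, 2.68) and at 21 months (library 1 highest, 6.23), Ifit2 in the caput at 21 months (library 3 lowest, 4.90), Rsad2 in the caput at 3 months (library 2 lowest, 3.61) and Rsad2 in the corpus at 21 months (library 4 highest, 5.54).

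The change with age differed between regions for Ifit1 (adjusted p = 0.0166 by edgeR), Ifit3 (0.0144), Isg15 (0.00306), Oasl2 (0.0405) and Usp18 (0.00337). It was larger in the cauda than in the mean of the other 6 regions for Ifit1 (adjusted p = 0.0235), Ifit3 (0.0163) and Isg15 (0.00515). Without the third 3-month cauda library these counts were 9 and 7 of 9, and without all libraries numbered 1, 2, 3 or 4 they were 1, 1, 6 and 0 between regions and 3, 1, 1 and 0 for the cauda.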

How the results depend on the processing

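Of 1482 values of single genes under the alternatives, 1370 kept their direction and their side of the threshold, 28 newly passed, 36 no longer passed and 48 changed sign, none of the last being called under either setting. Differences between regions passed for 9 of 9 genes at both ages under every alternative run. The count of members called for age in the efferent ductules (2) was 0 with library size only, 1 with filterByExpr, 1 with all 56 libraries in one fit and 0 with the fold threshold added to an adjusted p. Under the last rule it was 0 in the initial segment (from 1), 0 in the cauda (from 4) and 4 in the vas deferens (from 7). All 56 libraries in one fit gave 0 in the initial segment and 7 in the cauda, where no filter gave 6 and DESeq2 5, and library size only gave 1 in the caput. The causes were not tested, but library size only moved the median of all genes by −0.33 (efferent ductules), 0.20 (caput) and −0.16 (corpus), the fit of all 56 libraries by −0.14 in the initial segment, and DESeq2's size factors by 0.40 and 0.43 in the testis contrasts. Leaving out 1 library at a time gave 4 to 9 called members for the cauda, 4 to 7 for the vas deferens, 0 to 2 for the initial segment, 1 to 2 for the efferent ductules, and 0 to 1 for each of testis, caput and corpus. Leaving out all libraries of 1 number, or the third 3-month cauda library alone, gave 0 to 9 for the difference between regions and 0 to 7 for the cauda against the others, the 9 and the 7 without that single library.

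Log2 changes with age that turned sign were, with library size only, Ifit1 −0.012, Isg15 −0.25, Oasl2 −0.13 and Mx1 −0.29 in the efferent ductules and Rsad2 0.0028 in the caput. With all 56 libraries in one fit they were Isg15 −0.010 and Mx1 −0.035 in the efferent ductules and Isg15 −0.13, Rsad2 −0.032 and Oasl2 −0.055 in the initial segment. Mx1 in the 3-month testis was 0.30 with DESeq2's size factors, 0.036 with filterByExpr and 0.30 with DESeq2. With 1 library left out, values ranged in the caput from −0.038 to 0.43 (Ifit1), −0.088 to 0.29 (Ifit2), −0.043 to 0.40 (Isg15) and −0.16 to 0.17 (Mx1), and in the efferent ductules from −0.52 to 0.60 (Ifit1), −0.20 to 0.45 (Isg15), −0.41 to 0.51 (Mx1) and −0.063 to 0.45 (Oasl2). They ranged from −0.12 to 0.20 (Isg15) and −0.063 to 0.27 (Rsad2) in the initial segment, for Rsad2 from −0.13 to 0.58 (testis), −0.31 to 0.075 (corpus) and −0.12 to 0.30 (vas deferens), and from −0.0089 to 1.29 for Irf7 in the cauda. With those of 1 number or that library left out, the change in the cauda against the others ranged from −0.12 to 0.94 (Irf7) and −0.12 to 1.45 (Rsad2), and for Mx1 in the 3-month testis from −0.11 to 0.088.

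The replicate numbers were not taken to pair the libraries: same-numbered libraries of both ages correlated above 0.1 in 6 of 28 pairs (−0.24 to 0.24), 10 of 28 correlated best with their own number, and between regions 19 and 11 of 84 pairs were above 0.1. Of the 63 pairs of a member and a region, library 3 was the highest in 32 at 3 months, and at 21 months library 4 was the highest in 28 and library 3 the lowest in 27. With the replicate block 7 members were called in the cauda (from 4) and 1 in the efferent ductules (from 2), the counts of the other regions did not move, and Mx1 in the caput was −0.018. Low counts limit Isg15 and Rsad2 in the testis, at 0 to 12 counts per library. Ifit1, Ifit2, Ifit3 and Usp18 also had testis means under 1 CPM at both ages, the lowest of these for Ifit1 at 21 months (0.392 ± 0.356).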
